A study of Homo sapiens with 4 samples.

Results

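In Jurkat T cells, 125 of the 50868 genes in the files had a higher level after stimulation with PHA and, with the BET inhibitor JQ1 also present, a level at most 0.5 of that. They were chosen by their deposited FPKM, which are counts scaled to gene length and library total. A gene was a member when its mean FPKM over the 4 libraries was at least 0.5, when its FPKM was at least 2-fold higher in the DMSO+PHA than in the DMSO library, and when its FPKM in the JQ1+PHA library was at most 0.5 of that with DMSO+PHA. The ratio of JQ1 to DMSO also had to exceed 0.25, which kept out genes that JQ1 alone lowered beyond that limit. Another 9 genes (PDCD1, CD40LG, CD69, ICOS, LCP2, NFATC1, EGR1, TRAC and HAVCR2) were left out by name. A pseudocount of 0.1 was added to every FPKM before ratios were taken. Taken from counts without it, the JQ1 to DMSO ratio of UBXN10, IL16, BTBD6P1, AIF1L and AFF3 was below 0.25, at 0.180 to 0.247.

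The cells were Jurkat, an established human T-cell leukemia line with wild-type genotype. Cultures with the solvent DMSO or with 0.5 µM JQ1 were kept unstimulated or were stimulated by PHA at 150 ng/ml, each for 24 h, and are called DMSO, JQ1, DMSO+PHA and JQ1+PHA. PHA, phytohaemagglutinin, is a plant lectin that crosslinks surface glycoproteins, the T-cell receptor (TCR) among them. JQ1 displaces the BET proteins from acetylated chromatin. Each condition had 1 library, so there was no replicate to measure the spread and no test was made of any difference. A leukemia line also stands for 1 clone of T cells, which limits it as a model of T cells in the body.

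When the TCR is engaged, calcium and kinase cascades bring factors of the NFAT, AP-1, NF-kB and EGR families to the promoters and enhancers of activation genes. Their products include surface receptors that costimulate the cell, adaptors and phosphatases that damp the same cascades, and factors that act on further genes. Genes that depend on strong enhancers are known to be sensitive to BET inhibitors.

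Total counts lay between 18620954 and 19685401 per library, and mitochondrial genes took 6.27% to 7.07% of them. All 11 markers of Jurkat T cells on the list used here were expressed in every library, and their summed FPKM lay between 543 and 752. Of 15 markers of other cell types, 10 had at most 3 counts in every library and 6 had none, and the summed FPKM of the list lay between 1.73 and 8.10, most of it from CD79A. HEXIM1, a gene known to rise under BET inhibitors, had FPKM of 36.2 and 34.6 in the DMSO and DMSO+PHA libraries, and of 109 and 104 in the JQ1 and JQ1+PHA libraries. In bulk RNA, fewer cells that express a gene and less RNA per cell cannot be told apart.

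A mean FPKM of 0.5 or more was reached by 13485 genes, of which 385 (2.86%) were at least 2-fold higher in the DMSO+PHA than in the DMSO library. Among these 385 genes, 143 (37.1%) had at most 0.5 of that level in the JQ1+PHA library, while 9.25% of all 13485 genes did. From the 143, 11 were removed by the limit on JQ1 over DMSO and 7 more by name, which left the 125 members. Both limits of the rule rest on the same DMSO+PHA library, so a value that was high there by counting error or by a fault of that library alone would meet both. With the limits turned round, 221 genes were at least 2-fold lower with PHA, and 90 of these (40.7%) had a JQ1+PHA level 2-fold or more above DMSO+PHA. The share over all 13485 genes was not worked out for that direction. These counts share libraries and are descriptions of the rule. For single genes, a fold is the ratio of the gene's shares of the library counts, given with its 95% exact (Clopper-Pearson) interval, which covers counting error only. This interval excluded no change in both rule contrasts for 114 members and lay past 2-fold in both for 70.

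The members' median FPKM was 2.90 in the DMSO+PHA library, against 0.789 in the DMSO, 0.762 in the JQ1 and 0.669 in the JQ1+PHA library. Members took 0.678% of the counts of the DMSO+PHA library, and 0.226%, 0.249% and 0.215% of the DMSO, JQ1 and JQ1+PHA libraries. In the DMSO+PHA library 43 members had an FPKM under 2 and 28 had an FPKM of at least 10, and the median over all 13485 genes there was 3.86, so the median member lay at percentile 41.5. The DMSO+PHA library was the highest of the 4 for 117 members, and the JQ1 library was the highest for the other 8. Protein-coding genes made up 84 members (67.2%, against 78.0% of the 13485 genes), and 21 members were long noncoding RNAs, 6 were TCR variable segments and 2 TCR constant segments by the class in GENCODE release 44.

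**Figure D1:**
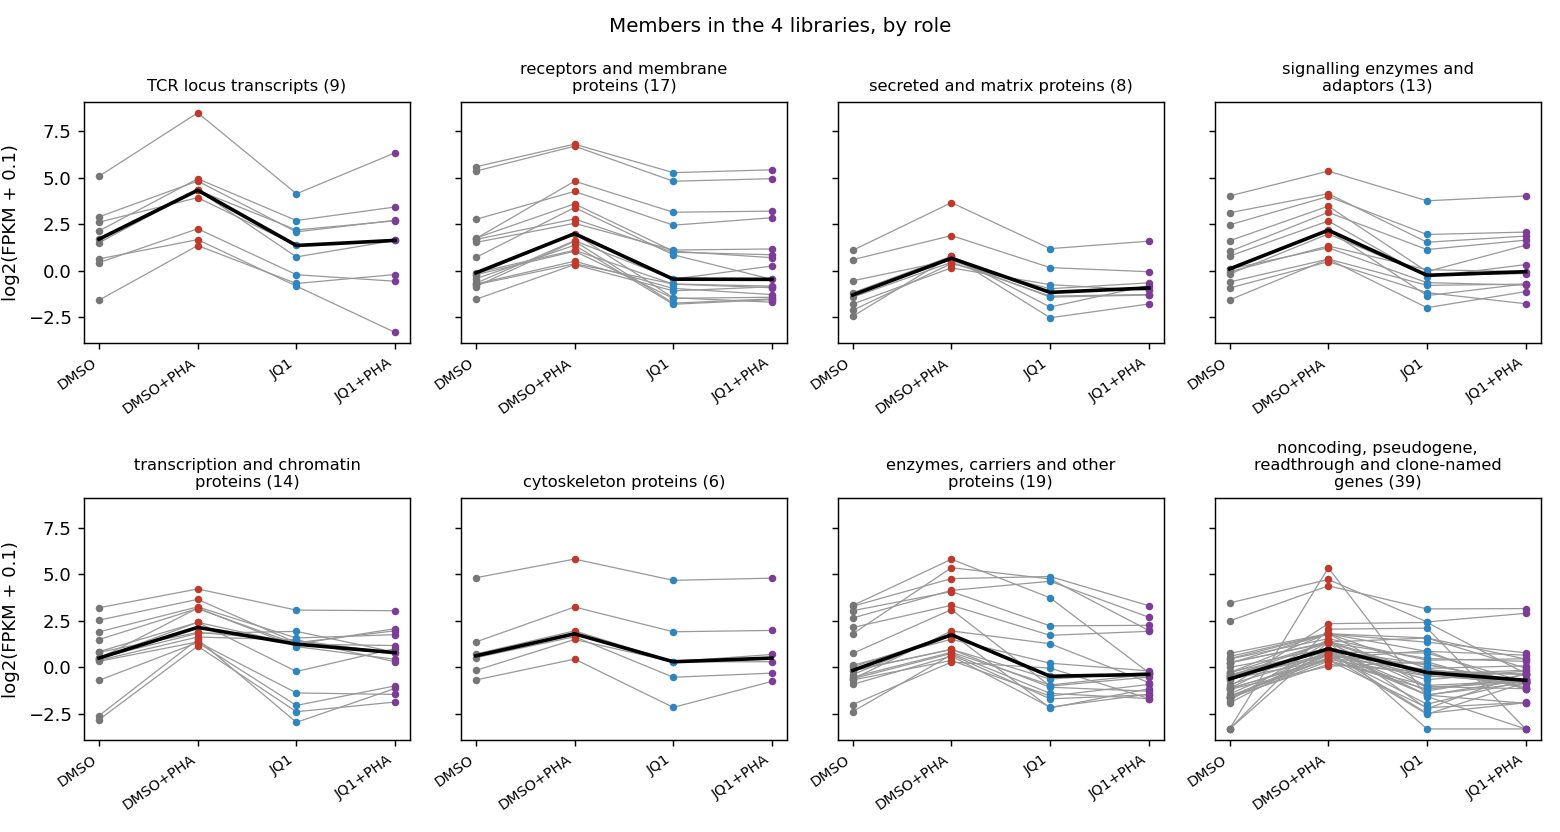
Level of each of the 125 members, as log2(FPKM + 0.1), in the 4 libraries (x axis), in a panel for each role with its number of members. Each grey line is 1 member, each point 1 library, and the black line joins the medians. In every panel the median is highest with DMSO+PHA, which the choice of members fixed against DMSO and JQ1+PHA but not against JQ1.

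All 4 libraries entered the rule, so the other ratios among them are descriptions as well. JQ1 alone left 81 members within 2-fold of DMSO, while 22 (17.6%) were at least 2-fold higher and 22 (17.6%) at least 2-fold lower. Over all 13485 genes these shares were 6.15% and 9.8%. On the log2 scale the median of JQ1 over DMSO was -0.24 for members, against -0.02 for all genes. When PHA was added to JQ1-treated cells, 95 members stayed within 2-fold of the JQ1 library, 11 (8.8%) were at least 2-fold higher and 19 (15.2%) at least 2-fold lower, against 1.51% and 1.48% of all genes. The median log2 ratio of JQ1+PHA to JQ1 was 0.09, where that of DMSO+PHA to DMSO, fixed by the rule to be at least 1, was 1.65. For 36 members the counting interval of JQ1+PHA over JQ1 lay above 1 and for 19 below 1, and it included 1 for 70. Measured against untreated cells, 101 members had a JQ1+PHA level within 2-fold of DMSO, 8 were higher (background 6.18%) and 16 lower (background 9.7%), with a median log2 ratio of -0.04. The FPKM that PHA added in JQ1-treated cells was, at the median, 2.80% of what it added in DMSO-treated cells, with quartiles of -10.1% and 11%.

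Another 260 genes reached the 2-fold PHA limit and are not members. The median FPKM of the 260 was 0.619 in the DMSO library and stood higher in the other 3, at 1.27 for JQ1, 1.97 for DMSO+PHA and 1.61 for JQ1+PHA. JQ1 alone was 2-fold or more above DMSO for 128 of the 260 (49.2%), and 39 (15%) were at least 2-fold higher with PHA in JQ1-treated cells. The median log2 ratio of JQ1+PHA to JQ1 was 0.13 for the 260, close to the 0.09 of the members. For 163 of the 260 the counting interval of this ratio included 1. Both their selection and the ratio of JQ1 to DMSO use the DMSO library. The rule also kept 125 of the 143 genes with a low JQ1+PHA level as members. The contrast of the sets was therefore not tested.

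**Figure D2:**
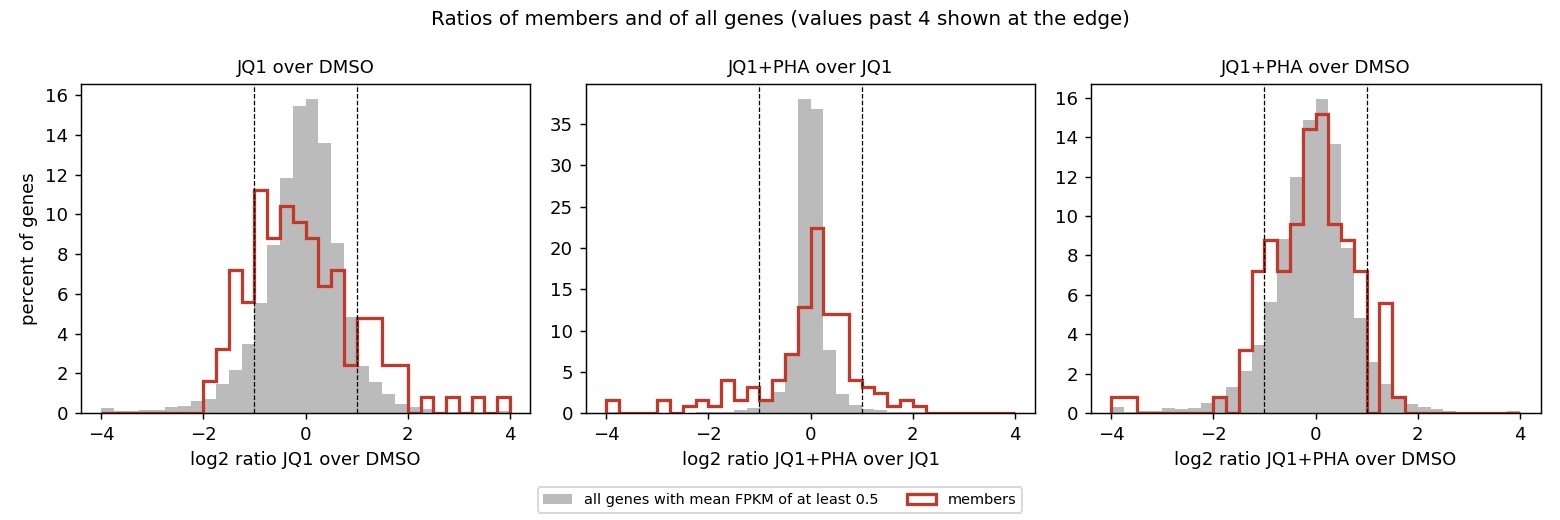
Distribution of the log2 ratio (x axis, FPKM + 0.1) of JQ1 over DMSO, JQ1+PHA over JQ1 and JQ1+PHA over DMSO, as a percent of genes (y axis), for the 125 members (red line) and all 13485 genes that reached the FPKM limit (grey). Dashed lines mark 2-fold, and the members are spread more widely than all genes in the first and second panels.

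**Figure D3:**
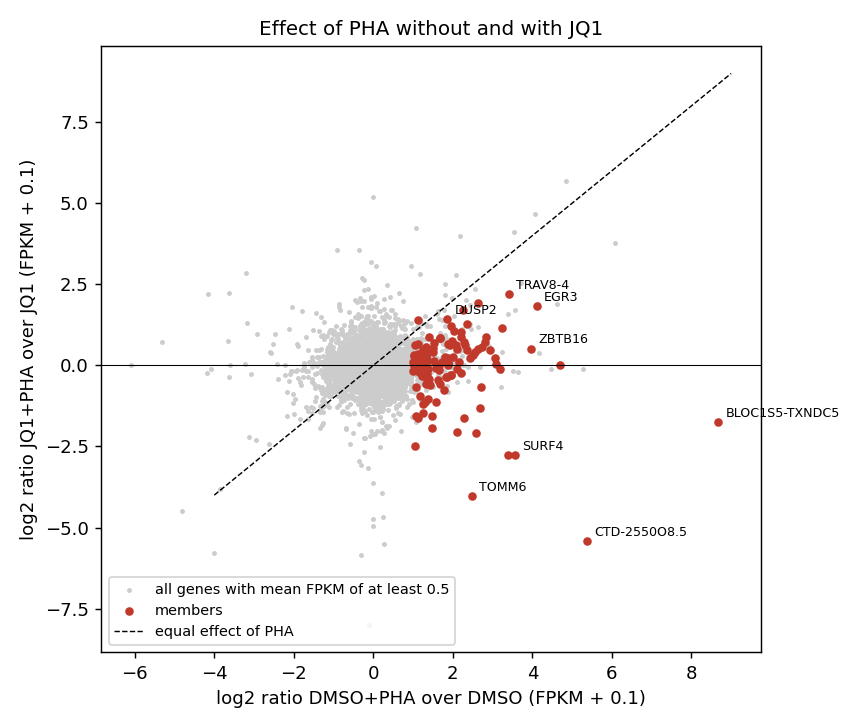
Log2 ratio of DMSO+PHA over DMSO (x axis) against JQ1+PHA over JQ1 (y axis), on FPKM + 0.1, with members in red and the 13485 genes in grey. Members lie right of 1 on the x axis by the rule, and 95 of them lie between -1 and 1 on the y axis.

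TCR locus transcripts formed a group of 9 members and held the most abundant one. TRAV8-4 (ENSG00000211790, GRCh38 chr14:21894433-21895030), a variable segment of the TCR alpha locus, had FPKM of 33.8 in the DMSO, 17.6 in the JQ1, 362 in the DMSO+PHA and 81.1 in the JQ1+PHA library. Its DMSO+PHA level was 10.7-fold (9.51 to 12.1) above DMSO and 4.46-fold (4.11 to 4.84) above JQ1+PHA. In JQ1-treated cells the level with PHA was 4.62-fold (3.89 to 5.51) above that without, so a PHA difference was present with JQ1 too and was the smaller one. The similar segments TRAV8-2 and TRAV8-6 had at most 6 counts in any library.

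Values of further genes are given in the order DMSO, JQ1, DMSO+PHA and JQ1+PHA. TRAV17 had FPKM of 2.75, 1.57, 20.2 and 3.0, and TRAV18 had 7.37, 4.16, 28.3 and 6.47. TRAV19 and TRAV16 rested on at most 43 and 20 counts in any library, and TRAV16 had no count with JQ1+PHA. The 5 variable segments lie close together in the alpha locus on chromosome 14, and TRAC, the constant segment left out by name, had FPKM of 16.7, 8.56, 221 and 50.1.

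The TCR gamma locus on chromosome 7 gave 4 members. TRGC2 (ENSG00000227191), a constant segment, had FPKM of 3.15, 4.47, 20.1 and 6.33, and TRGC1, the other constant segment, had 0.234, 0.521, 2.46 and 0.767. TRGV8, a variable segment, had FPKM of 4.32, 6.41, 30.8 and 10.7. The JQ1 level was above DMSO for the 3 gamma segments, with an interval that included no change for TRGV8. It was below DMSO for the 5 alpha segments, with intervals that included no change for TRAV16, TRAV17 and TRAV19. For TRGC2 the fold of JQ1 over DMSO was 1.42 (1.12 to 1.81), and for TRAV8-4 JQ1 was 1.92-fold (1.58 to 2.34) lower. The antisense transcript TRG-AS1, on the other strand of that locus, had FPKM of 6.02, 2.46, 15.2 and 3.0, with JQ1 2.45-fold (2.08 to 2.89) below DMSO. TRGC1 and TRGC2, and TRGV8 and TRGV7, are similar in sequence, and TRGV7 counts were 25, 67, 200 and 97, so how reads were shared between them is uncertain.

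Receptors and membrane proteins made up 17 members, 13 of which were within 2-fold of DMSO with JQ1 alone. HCST (ENSG00000126264, chr19:35902480-35904377), the DAP10 adaptor that carries the signal of NKG2D, had FPKM of 1.54, 1.71, 10.5 and 0.624. Its level was 6.77-fold (4.44 to 10.7) higher with PHA, and 16.7-fold (8.89 to 35.5) lower with JQ1+PHA than with DMSO+PHA. The JQ1+PHA level of HCST was also 2.74-fold (1.30 to 6.31) below that with JQ1 alone. CD27, a costimulatory receptor of the TNF receptor family, had FPKM of 0.758, 0.264, 3.89 and 0.209, from 22, 8, 118 and 6 counts. CD28, the main costimulatory receptor of T cells, had 6.70, 5.36, 19.1 and 7.11, and its JQ1+PHA level was 1.33-fold (1.22 to 1.44) above JQ1.

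LY9, a receptor of the SLAM family, had FPKM of 0.510, 0.417, 1.32 and 0.311. NKG7, a membrane protein of cytotoxic granules, had 0.761, 0.257, 1.97 and 0.271. FCMR, a receptor for IgM, had 0.644, 0.186, 2.48 and 0.240, and APOBR, an apolipoprotein B receptor, had 0.455, 0.198, 2.90 and 0.25. In each of LY9, NKG7, FCMR and APOBR the levels with JQ1 and JQ1+PHA were below DMSO, and their counting intervals for JQ1+PHA over JQ1 included 1. For LY9 the interval of JQ1 over DMSO, 0.629 to 1.06, included 1 as well.

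GPR174 and ITM2A followed TRAV8-4 as the most abundant members with DMSO+PHA. GPR174 (ENSG00000147138, chrX:79170972-79172229), a G protein-coupled receptor for lysophosphatidylserine, had FPKM of 48.2, 38.7, 112 and 43.0. ITM2A (ENSG00000078596, chrX:79360384-79367667), an integral membrane protein of activated and developing T cells, had 41.0, 28.1, 104 and 30.9. With 958 to 7924 counts per library, counting error was small for both. PHA gave a 2.33-fold (2.18 to 2.50) higher GPR174 level in DMSO-treated cells and a 1.11-fold (1.02 to 1.22) higher one in JQ1-treated cells. For ITM2A the same folds were 2.54 (2.44 to 2.65) and 1.10 (1.04 to 1.17).

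PTGER4 (ENSG00000171522, chr5:40679498-40693735), a prostaglandin E receptor, differed from these in having a JQ1 level above DMSO. Its FPKM was 3.22, 8.77, 28.1 and 9.13, so JQ1 was 2.72-fold (2.43 to 3.06) above DMSO. PHA gave an 8.74-fold (7.87 to 9.73) higher level without JQ1 and a 1.04-fold (0.957 to 1.13) ratio with JQ1. CCR7, a chemokine receptor for homing to lymph nodes, had FPKM of 0.244, 0.372, 1.16 and 0.449. FGFR1, a fibroblast growth factor receptor, had 0.528, 0.630, 2.97 and 1.09, and its JQ1+PHA level was 1.74-fold (1.54 to 1.95) above JQ1. The remaining receptors and membrane proteins, SEMA4A, CD52, STOM, CACNA1H and P2RY11, had between 1.20 and 12 FPKM with DMSO+PHA and were 2.30-fold to 7.44-fold lower with JQ1+PHA on the scale of FPKM + 0.1.

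**Figure D4:**
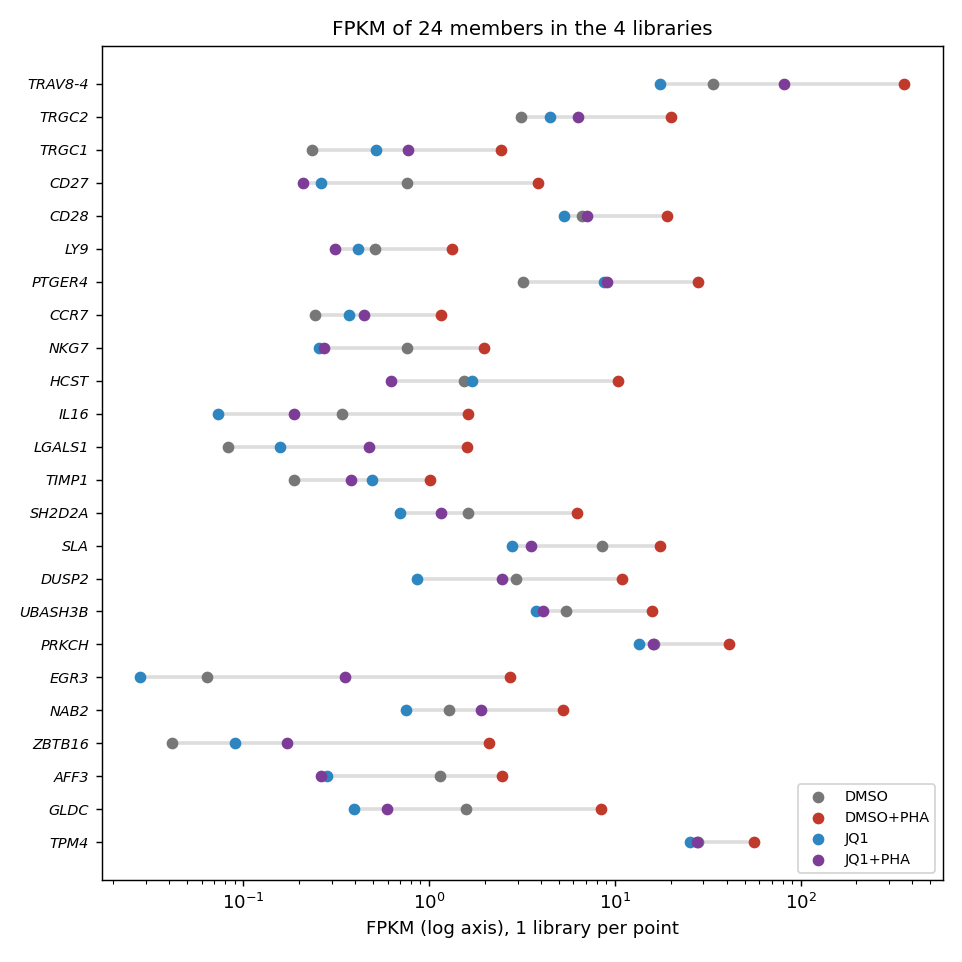
FPKM (x axis, log scale) of 24 members in each of the 4 libraries, with 1 point per library and a grey bar from the lowest to the highest. DMSO+PHA is the highest of the 4 for each of the 24, while JQ1 lies below DMSO for AFF3, DUSP2 and IL16 and above it for PTGER4, TIMP1 and TRGC1.

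Signalling enzymes and adaptors gave 13 members, 5 of them on the fixed lists of feedback regulators and of TCR signalling. SLA, the Src-like adaptor that lowers TCR levels at the surface, had FPKM of 8.59, 2.79, 17.6 and 3.54. DUSP2 (ENSG00000158050, chr2:96143166-96145440), a phosphatase of MAP kinases, had 2.96, 0.867, 11 and 2.49. UBASH3B, a phosphatase that damps TCR signals, had 5.45, 3.76, 15.9 and 4.13, and SH2D2A, a T-cell adaptor, had 1.63, 0.695, 6.29 and 1.16. All of these were lower with JQ1 alone than with DMSO, by 3.08-fold (2.84 to 3.34) for SLA, 3.41-fold (2.40 to 4.94) for DUSP2, 1.45-fold (1.32 to 1.59) for UBASH3B and 2.34-fold (1.69 to 3.29) for SH2D2A. DUSP2 was 2.87-fold (2.00 to 4.19) higher with PHA in JQ1-treated cells and 3.72-fold (3.08 to 4.52) higher in DMSO-treated cells, and these intervals overlapped.

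PRKCH (ENSG00000027075), protein kinase C eta, was the most abundant of the kinases among members, with FPKM of 16.2, 13.5, 41.0 and 16.1. PRKCE, protein kinase C epsilon, had 0.785, 0.742, 3.84 and 0.798, and its ratio of JQ1+PHA to JQ1 was 1.07 (0.867 to 1.33). PREX2, a Rac exchange factor, had FPKM of 0.969, 0.295, 4.43 and 0.513. RGS3, which turns off G protein signals, had 0.237, 0.152, 1.44 and 0.359, with a PHA fold of 2.37 (1.81 to 3.13) in JQ1-treated cells. The other 5, PTP4A3, IPCEF1, PPP1R16B, FRS2 and SH2D3C, were 2.54-fold to 4.80-fold lower with JQ1+PHA than with DMSO+PHA on the scale of FPKM + 0.1.

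Transcription and chromatin proteins gave 14 members, with EGR3 and ZBTB16 as those with the highest ratio of DMSO+PHA to DMSO. EGR3 (ENSG00000179388), an early growth response factor induced by the TCR, had 11, 5, 489 and 60 counts, which are FPKM of 0.0641, 0.0279, 2.72 and 0.353. It was 42.5-fold (23.5 to 85.7) higher with PHA in DMSO-treated cells and 12.7-fold (5.14 to 40.5) higher in JQ1-treated cells. NAB2, a corepressor that binds EGR factors, had FPKM of 1.29, 0.753, 5.24 and 1.90 and was 2.52-fold (1.95 to 3.29) higher with PHA in JQ1-treated cells. EGR1, left out by name, had FPKM of 0.491, 0.405, 39.9 and 6.85. EGR3 and NAB2 were among the 11 members at least 2-fold higher with PHA in JQ1-treated cells.

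ZBTB16 (ENSG00000109906, chr11:114059593-114250676), the PLZF factor of innate-like T cells, had 7, 16, 372 and 29 counts and FPKM of 0.0413, 0.0902, 2.1 and 0.173. It was 50.8-fold (24.4 to 127) higher with PHA without JQ1 and 1.92-fold (1.01 to 3.78) higher with JQ1. AFF3, a factor of the transcription elongation machinery, had FPKM of 1.15, 0.283, 2.47 and 0.262, and JQ1 alone was 4.05-fold (3.29 to 5.03) below DMSO. CIPC, an inhibitor of the CLOCK factor, had 1.28, 2.05, 8.99 and 1.24, so its JQ1+PHA level was 1.65-fold (1.35 to 2.02) below JQ1 alone. ETV5, an ETS factor, had 0.514, 0.140, 2.41 and 0.398, and HIVEP2, a zinc finger factor, had 5.70, 2.39, 12.5 and 3.80. RPRD1B, PRDM2, MAZ, SETMAR and ADNP were 2.12-fold to 2.82-fold lower with JQ1+PHA than with DMSO+PHA on the scale of FPKM + 0.1. POU2F1 and ZNF440 are described further on with genes whose JQ1 level was above DMSO.

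Secreted and matrix proteins gave 8 members. IL16, a chemoattractant cytokine for CD4+ cells, had FPKM of 0.339, 0.0729, 1.62 and 0.189 from 129, 29, 644 and 71 counts, and JQ1 alone was 4.65-fold (3.09 to 7.22) below DMSO. PI16, a peptidase inhibitor, had 2.04, 2.18, 12.6 and 2.91. LGALS1, galectin-1, had 3, 6, 61 and 17 counts, so its PHA fold of 19.4 had an interval of 6.34 to 96.8. TIMP1, an inhibitor of metalloproteinases, had 8, 22, 45 and 16 counts. ADCYAP1, COL6A1, LGALS9B and SCG2 had FPKM between 1.21 and 3.61 with DMSO+PHA. LGALS9B is close in sequence to LGALS9, which had 548, 160, 835 and 167 counts against 41, 20, 101 and 21 for LGALS9B, so reads of the more abundant gene may enter its counts. That was not tested.

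Cytoskeleton proteins gave 6 members, none of them among the 15 with the lowest ratio of JQ1+PHA to DMSO+PHA. TPM4 (ENSG00000167460), a tropomyosin, had the highest counts of all members, with FPKM of 28.1, 25.5, 56.4 and 27.6. ZYX, zyxin of focal adhesions, had 1.33, 0.588, 3.02 and 0.702. GMFB, an actin regulator of the cofilin family, had 2.47, 3.65, 9.35 and 3.84, and LPP, a zyxin relative, had 0.789, 1.12, 2.72 and 1.13. TUBA4A, an alpha tubulin, had 1.53, 1.13, 3.78 and 1.51. AIF1L had 0.521, 0.123, 1.25 and 0.489, and here PHA gave a 3.96-fold (2.50 to 6.50) higher level with JQ1 and a 2.40-fold (1.89 to 3.07) higher one without.

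Enzymes, carriers and other proteins gave 19 members. GLDC (ENSG00000178445, chr9:6532464-6645650), glycine decarboxylase of the mitochondrial glycine cleavage system, had FPKM of 1.58, 0.394, 8.48 and 0.593. It was 5.38-fold (4.57 to 6.36) higher with PHA and 14.3-fold (11.1 to 18.7) lower with JQ1+PHA than with DMSO+PHA, and JQ1 alone was 4.0-fold (2.86 to 5.68) below DMSO. UBXN10 had the lowest ratio of JQ1 to DMSO among members, with FPKM of 0.658, 0.119, 3.42 and 0.347. NDST1, an enzyme of heparan sulfate synthesis, had 0.910, 0.613, 3.25 and 0.669, and APOBEC3B, a cytidine deaminase, had 0.428, 0.126, 1.41 and 0.266 from at most 90 counts. TMEM97, a membrane protein linked to cholesterol transport, had 8.14, 4.58, 16.7 and 4.67. LRRC37A had 16, 38, 275 and 45 counts, while its near copy LRRC37A2 had 468, 468, 576 and 515. SLC25A43, TM6SF1, TOMM40L, WSB2, LRRIQ1, KIAA1549 and AMDHD1 had FPKM between 1.19 and 9.96 with DMSO+PHA.

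Some members were high in both libraries that received a single agent and low in the other two libraries. In 15 genes all of the ratios DMSO+PHA over DMSO, DMSO+PHA over JQ1+PHA, JQ1 over DMSO and JQ1 over JQ1+PHA were at least 2-fold. All 15 are members, which these limits imply, and 7 genes outside the members had the reverse pattern. SURF4 (ENSG00000148248, chr9:133361449-133376166), a cargo receptor of the endoplasmic reticulum, had FPKM of 3.38, 26.9, 40.9 and 3.84. It was 7.94-fold (7.23 to 8.74) higher with JQ1 than with DMSO, and 7.0-fold (6.4 to 7.66) lower with JQ1+PHA than with JQ1. MRFAP1 had 9.64, 29.4, 27.2 and 9.83, and GOPC, a Golgi protein that sorts membrane proteins, had 6.19, 24.6, 17.5 and 6.37. TRIM32, a ubiquitin ligase, had 0.544, 2.30, 3.77 and 0.464, and GCNT1, a glycosyltransferase of O-glycans, had 0.148, 0.866, 1.11 and 0.211. POU2F1, the Oct-1 factor, had 1.19, 2.67, 2.99 and 1.12, and ZNF440 had 1.32, 3.71, 3.44 and 1.65. These 7 genes are those shown in the bar plot, and in each the JQ1 and DMSO+PHA levels stood above the other pair by the definition used. SURF2, the neighbour of SURF4, had FPKM of 12.9, 11, 12.5 and 11.4, without that pattern, and MRFAP1L1, similar in sequence to MRFAP1, had 2284, 2803, 2252 and 2589 counts. Whether these levels follow the treatments or the way reads were assigned in each library was not tested.

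Some members belong to readthrough or overlapping annotations. BLOC1S5-TXNDC5 had 0, 14, 2424 and 0 counts, and no fold is given against the libraries with none. TXNDC5, a gene on the same strand within that readthrough locus, had 2775, 1320, 163 and 1144 counts, and so was lowest where the readthrough gene was highest. TOMM6, a subunit of the translocase of the outer mitochondrial membrane, had 210, 293, 1243 and 15 counts, and PRICKLE4 on the same strand had 1000, 445, 168 and 671. P2RY11, a receptor for extracellular nucleotides, had 154, 97, 590 and 71 counts, and PPAN-P2RY11, which spans it, had 538, 32, 768 and 116. CTC-260F20.3 had 14, 200, 191 and 25 counts and YJEFN3 had 135, 258, 37 and 250. CTD-2550O8.5, within a locus that overlaps ELAVL1 and NDUFA7, had 0, 48, 46 and 0 counts.

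Of the 125 members, 56 had a locus that overlapped another gene with at least 20 counts. When the counts of member and overlapping genes were summed, 19 of these 56 still passed both 2-fold limits and 37 did not, BLOC1S5-TXNDC5, TOMM6 and P2RY11 among the latter. CD27, CD52, NAB2, TIMP1, TMEM97, TUBA4A, WSB2, SETMAR and TM6SF1 did not pass either. Each of TUBA4A, WSB2, SETMAR and TM6SF1 overlapped a gene on the opposite strand. For CD52 (UBXN11), NAB2 (STAT6), TIMP1 (SYN1) and TMEM97 (IFT20) the overlapping gene lay on the opposite strand, and CD27 passed when TAPBPL, on its own strand, was summed without the opposite-strand CD27-AS1. Over overlapping genes of the same strand only, 26 members were affected and the sums of 17 did not pass. Whether the counting used strand is not given in the sources used here. With the summed counts, 88 members remained.

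**Figure D5:**
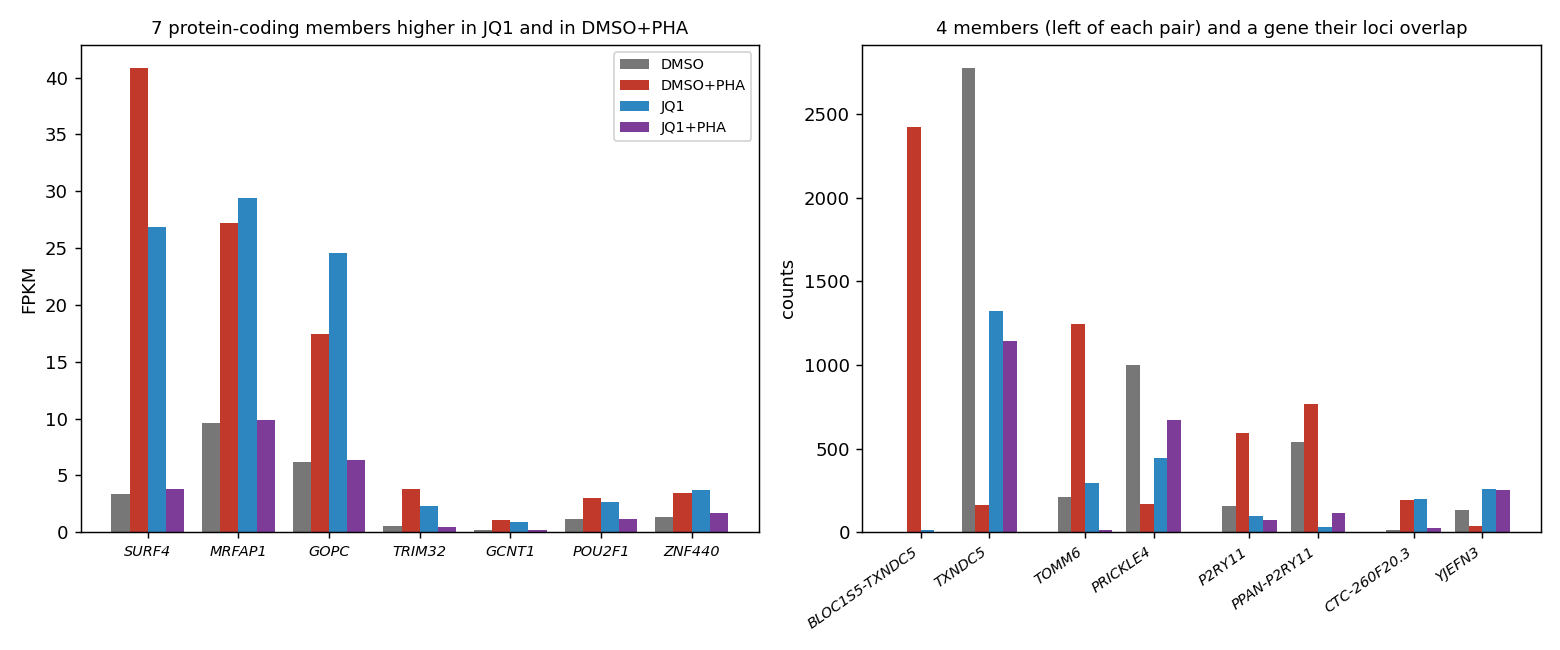
Left, FPKM (y axis) of 7 protein-coding members in the 4 libraries (bars), which were higher with JQ1 and with DMSO+PHA than with DMSO and JQ1+PHA. Right, counts (y axis) of 4 members and of a gene that each overlaps, where TXNDC5 and PRICKLE4 are lowest in the DMSO+PHA library, in which BLOC1S5-TXNDC5 and TOMM6 are highest.

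The remaining group of 39 noncoding, pseudogene, readthrough and clone-named genes held most of the thinly covered members. Of the 32 members with under 50 counts in the DMSO+PHA library, 29 were in this group and 4 of the 32 were protein-coding. CASC15, a long noncoding RNA, was its best covered member, with FPKM of 5.53, 8.70, 20.7 and 8.81 and a ratio of JQ1+PHA to JQ1 of 1.01 (0.953 to 1.08). RP4-647J21.1 had 10.9, 5.32, 26.3 and 7.36, and GVINP1, a GTPase pseudogene, had 1.57, 0.857, 3.42 and 0.954. RPL23AP81, a ribosomal protein pseudogene with one of the highest ratios of JQ1 to DMSO, had only 2, 16, 12 and 3 counts. JQ1 alone gave at least 2-fold higher levels in 12 of the 39, against 6.15% of all 13485 genes. Among the 93 members with at least 50 counts, 12 were at least 2-fold higher with JQ1 alone and 18 lower, with a median of -0.33 for JQ1 over DMSO on the log2 scale.

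Lists of genes of T-cell activation placed the members among their relatives. The 9 genes left out by name are not counted in these lists. Their ratios of DMSO+PHA to DMSO were 67.6 for EGR1, 24.5 for PDCD1, 17.8 for CD69, 13.2 for TRAC and 10.5 for CD40LG. The ratio was 5.47 for ICOS, 4.57 for LCP2, 2.44 for HAVCR2 and 2.02 for NFATC1. Beside the counts stand the shares over all 13485 genes, which were 2.86% at least 2-fold higher with PHA and 9.25% at least 2-fold lower with JQ1+PHA than with DMSO+PHA. Of 34 measured transcription factors of activation, 6 were at least 2-fold higher with PHA (EGR3, GATA3, IKZF2, KLF2, NAB2 and TOX) and none at least 2-fold lower, and EGR3 and NAB2 were members. Of 30 activation and costimulatory surface molecules, 5 were higher with PHA (CD27, CD28, CD82, LY9 and SEMA4D), and none was lower. Of 47 feedback regulators, 6 were higher with PHA (DUSP2, PTPN6, RASAL3, SH2D2A, SLA and UBASH3B), none was lower, and 4 were members. Of 50 TCR chains and proximal signalling genes, 3 were higher with PHA, and all 3 (PRKCH, TRGC1 and TRGC2) were members. Of 17 measured cytokine and chemokine receptors, 6 were higher with PHA (CCR7, IL17RA, IL2RB, PTGER4, S1PR1 and TGFBR2), and 2 were members. Of 9 cytokines and ligands, IL16 and TNFSF10 were higher with PHA and IL16 was a member, and of 8 cytotoxic granule genes CST7 and NKG7 were higher and NKG7 was a member. Of 38 adhesion, homing and cytoskeleton genes, LGALS1 and TIMP1 were higher and both were members. None of these lists had a gene at least 2-fold lower with PHA, while 3 of 19 immature lymphoid and recombination genes were lower and none was higher. The 10 BET inhibitor response genes held none in either direction. At least 2-fold lower with JQ1+PHA than with DMSO+PHA were 8 of the 34 transcription factors, 17 of the 30 surface molecules, 11 of the 47 feedback regulators, 16 of the 50 TCR genes and 6 of the 17 receptors. The same held for 5 of the 9 cytokines and ligands, 7 of the 8 cytotoxic granule genes, 12 of the 38 adhesion genes, 11 of the 19 recombination genes and 1 of the 10 BET inhibitor response genes. It held too for 3 of 24 calcium and calcineurin genes, 2 of 24 apoptosis genes, 6 of 29 metabolic genes and 9 of 35 interferon-stimulated genes. At least 2-fold higher instead were 5 of the 10 BET inhibitor response genes and 5 of the 34 transcription factors. So were 3 of the 24 calcium genes, 3 of the 35 interferon-stimulated genes and 2 of the 24 apoptosis genes. The same was true of 2 of the 47 feedback regulators, 2 of the 19 recombination genes and 1 of the 50 TCR genes. The other lists named here held none, and the share over all 13485 genes was not worked out for this direction. JQ1 alone was at least 2-fold below DMSO for 12 of the 30 surface molecules and 13 of the 47 feedback regulators. It was so for 8 of the 50 TCR genes, 6 of the 8 cytotoxic genes and 11 of the 19 recombination genes. The numbers were 4, 3, 5 and 5 for the transcription factors, receptors, cytokines and adhesion genes. They were 4, 3, 5, 7 and 0 for the calcium, apoptosis, metabolic, interferon-stimulated and BET inhibitor response genes. The share over all 13485 genes was 9.8%. Calcium and calcineurin genes, apoptosis genes, metabolic genes and interferon-stimulated genes gave 0 members, although 1, 1, 1 and 2 of their genes were higher with PHA. The median log2 ratio of DMSO+PHA to DMSO was 0.37 over the transcription factors, 0.26 over the surface molecules, 0.30 over the feedback regulators and 0.15 over the TCR genes, against -0.003 over all 13485 genes. The lists were drawn up with earlier results of these data known and name genes that T-cell activation is known to act on, so their counts are no independent evidence.

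At each limit of the rule the nearest genes were close in value. TPM4 at a ratio of 2.002 was the member nearest to the PHA limit, and SH2D1A at 1.990 was just outside it although its FPKM of 11.5, 8.95, 22.9 and 5.74 resembled those of members. RHOT1P2 at 0.496 was just inside the limit on JQ1+PHA over DMSO+PHA, and RP11-349G13.1 at 0.507 just outside. BTBD6P1 had a mean FPKM of 0.510, and RP11-175P19.2 at 0.499 missed the limit. UBXN10 at a JQ1 over DMSO ratio of 0.288 was inside, and KIAA0125 at 0.240 was outside. Besides CD40LG, 10 genes were left out by that limit, among them CST7, an inhibitor of granule proteases, with FPKM of 2.86, 0, 6.06 and 0, and ATP9A with 5.15, 0.372, 28.1 and 1.05. These 10 were also at least 2-fold higher with PHA and lower with JQ1+PHA, so the limit separates them from the members by the lower JQ1 level alone.

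On the genome, 19 members lay within 100000 bases of another, in 21 pairs. They were the 5 TCR alpha segments, the 4 TCR gamma members, FGFR1 with RPS20P22 and RP11-350N15.6, CD27 with SCARNA10 and a clone-named gene, CACNA1C-AS1 with CACNA1C-AS2, and ZYX with AC093673.5. Members made up 0.927% of all tested genes, and 2.29% of those on chromosome 14, where 11 of the 480 tested genes were members, 5 of them the alpha segments.

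Promoter windows of RefSeq on GRCh38.p14, from 250 bases before to 50 after each transcript start, were found for 68 of the 125 members, as 104 windows. The median GC content of the windows was 61.3%, against 65.0% over the 12961 windows of the genes tested. Letters of the sites that factors downstream of the TCR bind were searched on both strands. The EGR site GCGNGGGCG was in 20 of the 104 windows (19.2%), against 14.9% of the windows of the genes tested, 52 of the 280 windows of genes at least 2-fold higher with PHA and 9.43% of all 35116 windows in the table. For the further motifs, the shares over the genes tested and over all windows follow in that order. The AP-1 site TGANTCA was in 7.69%, against 4.55% and 7.71%, and the NF-kB consensus in 12.5%, against 10.3% and 9.08%. The NFAT core with a further A, GGAAAA, was in 14.4%, against 20.2% and 24.0%. The CRE TGACGTCA was in 0.962% (3.04% and 1.85%), the TATA box letters TATAAA in 2.88% (5.68% and 11.5%), the E-box CACGTG in 5.77% (9.72% and 7.26%) and the SRF CArG box in 2.88% (1.11% and 1.29%). Over the 280 windows of genes at least 2-fold higher with PHA, the shares were 7.5% for AP-1, 12.9% for NF-kB and 19.6% for NFAT. They were 2.5% for the CRE, 5.0% for the TATA box, 7.86% for the E-box and 2.5% for the CArG box. The AP-1 and CRE letters cannot overlap each other, while those of NF-kB and NFAT, and successive EGR letters, can. Windows of 1 gene may overlap, so they are not independent. The exact 95% interval of the EGR share was 12.2% to 28.1%, which includes the shares over the genes tested and over those higher with PHA.

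The following stretches of at most 30 bases are shown because they hold such letters before the start of members on the activation lists. All are written 5′ to 3′ along the strand of the gene, with the motif letters in capitals.

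CD27, AP-1, chr12:6443645-6443673, plus strand: aaacagctctcTGAATCAcacccaaatgt
CD27, NFAT, chr12:6443709-6443738, plus strand: cagagggggctgGGAAAAgacaagagaatg
DUSP2, E-box and EGR sites, chr2:96145525-96145553, minus strand: CACGTGagggGCGGGGGCGgGCGCGGGCG
IL16, NFAT, chr15:81296829-81296858, plus strand: ctcaatatccgtTTTTCCgtcccaatcaaa
NAB2, EGR, chr12:57089042-57089070, plus strand: tgtgcgtcctGCGGGGGCGgaggcgcgga
PTGER4, NF-kB consensus, chr5:40679665-40679690, plus strand: agcaccGGGGCTTCCCagggtcccct
UBASH3B, NF-kB consensus, chr11:122655552-122655581, plus strand: ccataaggttGGGATCCTCCgtctccaagt
UBASH3B, NFAT, chr11:122655679-122655708, plus strand: ccacaaggctccTTTTCCtttttgatccat

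The DUSP2 stretch runs from 113 to 85 bases before the start and holds the E-box letters and the EGR letters 2 times within 29 bases. NAB2, itself a partner of EGR factors, holds the EGR letters 62 bases before its start. CD27 holds AP-1 and NFAT letters, and PTGER4 holds NF-kB letters. UBASH3B holds NF-kB letters, and NFAT letters on the opposite strand. IL16, at its downstream start, holds NFAT letters on the opposite strand. CD28, PRKCH, NKG7 and TIMP1 had windows in the table without any of the letters searched. A match describes the letters of the window and is no evidence of binding, and EGR3 and the TCR segments had no window in the table.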

How the data were processed

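RNA-seq of 4 Jurkat libraries, 1 per condition, was used. The authors deposited raw counts of reads per gene and FPKM. The paper and the labels name Hisat2 2.0.4, while the submitters' processing notes name TopHat2 2.0.9 and Cufflinks 2.1.1, with GRCh38 as the genome. The paper names a stranded kit and the labels another kit of the same maker, and neither the counting program nor its strand setting nor the annotation release is given in the sources used here. The deposited FPKM were checked to equal counts over a length and the total count (largest relative spread of the implied length 4.65e-05 over 12021 genes).

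Files were joined on the Ensembl identifier. Ratios are of FPKM after a pseudocount of 0.1, and folds with intervals are ratios of count shares with exact 95% (Clopper-Pearson) intervals, which cover counting error only. No fold is given against a library with 0 counts. Each library's 3 counts are 0.152 to 0.161 CPM. No test was made, because each condition had 1 library.

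The members and lists were chosen with earlier results of these data known, and role groups were assigned after the members were known. Named genes are the 15 with the lowest JQ1+PHA over DMSO+PHA, the 10 with the highest PHA ratio, the 10 most abundant with DMSO+PHA, all on a list, the 5 lowest and highest by JQ1 over DMSO and by JQ1+PHA over JQ1, and those at each limit. Clone-named genes are mostly given by count, and further members are named to account for their group. Alternatives concerned the pseudocount, filter, fold, scaling, gene class, overlaps and the limit on JQ1. The steps were tested on simulated data of well-covered genes, with a change well past 2-fold in the DMSO+PHA library. Members with few counts or with folds near the limits were not covered by it. Gene classes came from GENCODE release 44 and promoters from RefSeq. Tools were Python 3.11.15, numpy 2.4.6, pandas 2.3.3, scipy 1.17.1, matplotlib 3.10.9, R 4.3.3, edgeR 4.0.16 (TMM factors) and DESeq2 1.42.0 (size factors).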

Additional observations from a re-analysis of the deposited data

How the results depend on the processing

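The number of members, 125, depended on the limits set on low and small values. A pseudocount of 1 gave 56 members, a mean FPKM of at least 0.1 gave 367, of at least 1 gave 75 and of at least 5 gave 25. Limits of 3-fold gave 43 and of 1.5-fold 360. With TMM factors 117 genes met the rule, with DESeq2 size factors 116 and with a common total 131, of which 117, 116 and 122 were among the 125. Leaving out 37 members whose sums with overlapping genes did not pass, which was chosen after seeing the data, left 88. Leaving out those under 50 counts left 93, and those at least 2-fold higher with JQ1 alone 103, both also chosen after seeing the data. The number of members at least 2-fold higher with PHA in JQ1-treated cells, 11, was 1 with a pseudocount of 1, 16 with a pseudocount of 0.01, and 9 where the counting interval had to exclude no change. The median log2 ratio of JQ1 to DMSO lay between -0.32 and -0.09 over its 7 alternatives, and that of JQ1+PHA to DMSO between -0.04 and 0 over its 5. Motif shares kept within their counting intervals when only the bases before the start were searched. With 1 library per condition, no replicate could be left out and no paired analysis was possible because there are no replicates. Depth limits the folds of members with few counts, and 11 members had an interval that included no change in at least 1 rule contrast.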
